A study of Danio rerio with 6 samples.

Results

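Heart muscle genes and the transcription factors that control heart formation were examined in whole-embryo RNA of the zebrafish *Danio rerio*, taken 1 day post-fertilisation, when the heart tube is beating. The set holds 10 genes chosen by name, of the 47445 rows of a table of read counts. They are the contractile genes *myl7*, *myh6*, *myh7* and *tnnt2a*, the hormone gene *nppa*, and the regulators *nkx2.5*, *gata4*, *gata5*, *gata6* and *tbx5a*. The *myh7* gene stands in the table as *vmhc*, which RefSeq lists as its synonym, and it is called *vmhc* below. Only *nkx2.5* has a second row in the table, *nkx2.5-2*.

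Total RNA of embryos labelled as *rapgef1b* knockdown (3 samples) and of embryos labelled as wild-type control (3 samples) was depleted of ribosomal RNA and sequenced. *rapgef1b* encodes an exchange factor that activates Rap GTPases. All samples were taken at 1 day post-fertilisation. The labels give neither the strain, the knockdown reagent, whether controls received a control reagent, nor how many embryos were pooled, so p-values measure the spread between these samples, which may be technical. Although the labelled cell type is "embryonic cell", the extraction protocol names embryos, and the heart is a small share of such RNA. In bulk samples of this kind, fewer heart cells and less RNA per heart cell cannot be told apart.

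The heart is the first organ to work in the vertebrate embryo. Its precursors arise in the lateral plate mesoderm, where Gata factors and Nkx2.5 switch on the genes of the myocardium. The muscle cells then assemble sarcomeres from cardiac myosins, troponins and actin, and the atrium and the ventricle use different myosin heavy chains. The genes *gata4*, *gata5* and *gata6* are also active in the gut endoderm, and *tbx5a* in the pectoral fin bud and the dorsal eye, so their RNA in embryo samples does not come from the heart alone.

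Libraries held 2118413 to 2232625 counts in the knockdown group and 2042600 to 3809123 in the control group. Values are given as CPM, counts scaled to a common library size with TMM factors. The targeted gene *rapgef1b* had an estimate above 0, at 0.24 on the log2 scale (standard error 0.14, edgeR adjusted p = 0.386), so every direction below is that of the libraries labelled knockdown. Pairs of libraries within a group differed by more than sampling noise (chi-square divided by its degrees of freedom at least 3.27).

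No heart gene passed the test. Of the 10, 8 had enough counts to be tested and 0 were called by the quasi-likelihood test of edgeR at a Benjamini-Hochberg adjusted p-value under 0.05, where 4.29% of the 15607 genes tested were called. DESeq2 and limma-voom also called 0. At an unadjusted p-value under 0.05 there were 3 of the 8, *myh6*, *gata5* and *gata6*, against 18.1% of all genes tested. The estimate of *myh6* was below 0, as for 9.12% of all genes tested at that level, and those of *gata5* and *gata6* were above 0, as for 8.98%. Knockdown and control values did not overlap for 2 of the 8, *tnnt2a* and *gata6*, against 23.2% of all genes tested. The members' estimates went both ways. All 4 contractile genes had estimates below 0, while *gata4*, *gata5* and *gata6* had estimates above 0. Over all genes tested, 48.8% had an estimate below 0. The median log2 fold change of the 8 was -0.19, against 0.011 over all genes.

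**Figure D1:**
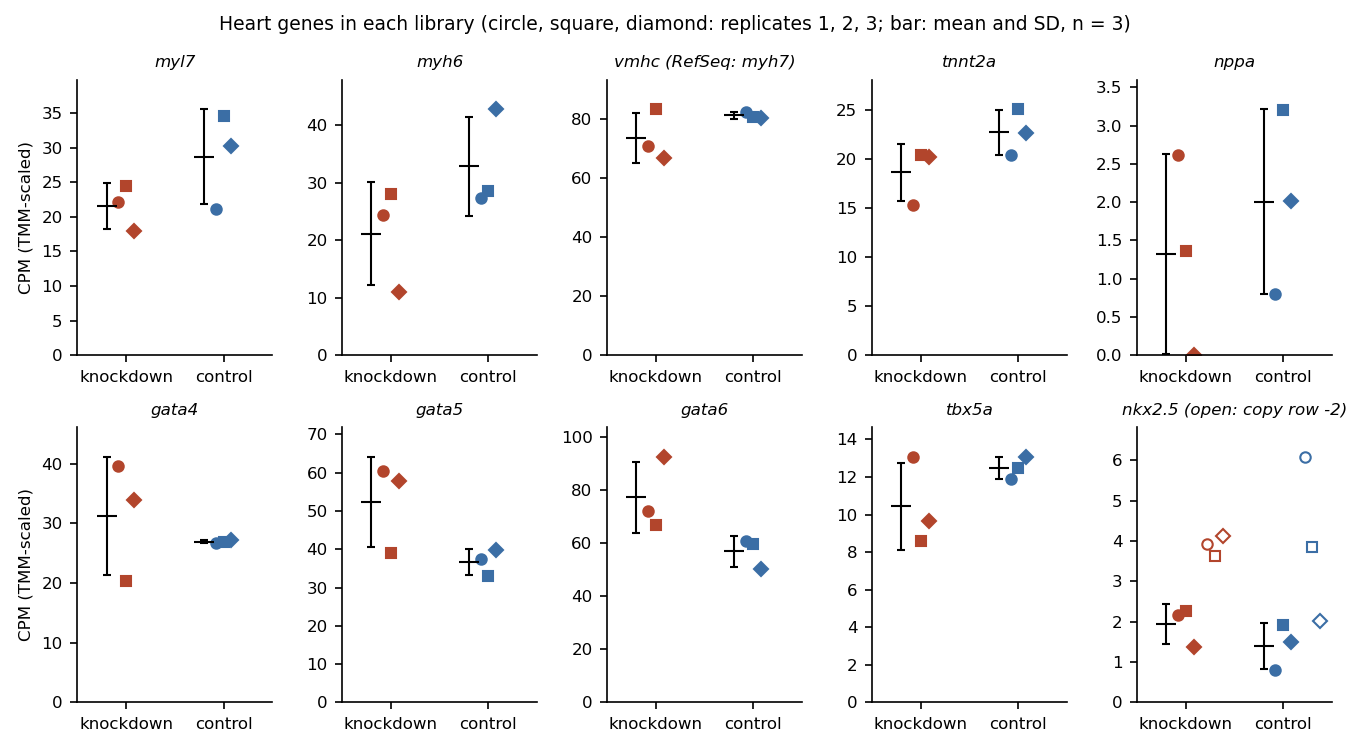
Level of each of the 10 heart genes in each library, in CPM on linear axes starting at 0, for the 3 knockdown libraries (red, left in each panel) and the 3 control libraries (blue, right); the bars give the mean and SD of each group and the open symbols in the last panel the row *nkx2.5-2*. The groups overlap in each panel except those of *tnnt2a* and *gata6*, and the rows *nppa* and *nkx2.5* lie under 4 CPM.

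The contractile genes are described first. *myl7* encodes the regulatory light chain of cardiac myosin and is expressed throughout the myocardium. It had 22.2, 24.45 and 17.9 CPM in knockdown replicates 1, 2 and 3, against 21.2, 34.6 and 30.2 CPM in control replicates 1, 2 and 3. Control replicate 1 lay below 2 of the knockdown libraries, so the groups overlapped. The means were 21.5 ± 3.34 CPM in knockdown and 28.7 ± 6.85 CPM in control libraries (SD, n = 3 each). On the log2 scale the estimate was -0.40 (standard error 0.22, 95% confidence interval from -0.85 to 0.055, edgeR adjusted p = 0.351). It was -0.60 without control replicate 1 and -0.22 without control replicate 2, with no call in either fit.

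*myh6*, the atrial myosin heavy chain, had 24.4, 28.1 and 11.0 CPM in knockdown replicates 1, 2 and 3, against 27.3, 28.5 and 42.7 CPM in control replicates 1, 2 and 3. Knockdown replicate 3 was the lowest library and control replicate 3 the highest, and the other 4 lay close together, with knockdown replicate 2 above control replicate 1. These values rest on 24 to 62 counts per knockdown library and 85 to 103 per control library. Its estimate of -0.60 on the log2 scale was the lowest of the 8 (standard error 0.27, interval from -1.18 to -0.023, edgeR adjusted p = 0.254). Without knockdown replicate 3 the estimate was -0.30, without control replicate 3 it was -0.40, and without knockdown replicate 2 it was -0.86, so single libraries set much of its size.

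*vmhc*, the ventricular myosin heavy chain, had 70.9, 83.3 and 67.0 CPM in knockdown replicates 1, 2 and 3, against 82.6, 80.8 and 80.5 CPM in control replicates 1, 2 and 3. The controls lay close together, and knockdown replicate 2 was above all of them. Its change was estimated at -0.14 on the log2 scale (standard error 0.14, 95% confidence interval from -0.43 to 0.15, edgeR adjusted p = 0.649). Without knockdown replicate 2 the estimate was -0.25, and without knockdown replicate 3 it was -0.082. The interval with all libraries is the narrowest of the 8. It leaves room for a fall of up to 0.43 or a rise of up to 0.15 on the log2 scale. Myosin heavy chain genes are similar in sequence and how reads shared between them were counted is not given in the sources used here, so the counts of *myh6* and *vmhc* are uncertain to that extent. RefSeq also lists *smyhc3* as a synonym of the gene counted as *vmhc*, whose control mean was 81.3 CPM, against 28.7 CPM for *myl7*. The part of other tissues in the *vmhc* values was not tested.

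The ratio of *myh6* to *vmhc* was compared between libraries as a description of the atrial and ventricular myosins, without correction for gene length or for RNA of other tissues. It was 0.344, 0.337 and 0.164 in knockdown replicates 1, 2 and 3, against 0.33, 0.353 and 0.531 in control replicates 1, 2 and 3. The ratio was alike in 4 libraries and differed in the third replicate of each group, in opposite directions. Groups overlapped.

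*tnnt2a* encodes cardiac troponin T, and its loss in the zebrafish mutant silent heart stops the heartbeat. It had 15.2, 20.4 and 20.2 CPM in knockdown replicates 1, 2 and 3, against 20.4, 25.0 and 22.6 CPM in control replicates 1, 2 and 3. The knockdown libraries all lay below the controls, by a margin of about 0.01 CPM between 20.375 CPM in knockdown replicate 2 and 20.385 CPM in control replicate 1. With library size alone, without TMM factors, the groups overlapped, since knockdown replicates 2 and 3 then lay above control replicate 1. Of the 8 tested genes *tnnt2a* was the only 1 with all knockdown values lower, where 11.9% of all genes tested had that pattern. edgeR put the difference at -0.28 on the log2 scale (standard error 0.21, 95% confidence interval from -0.72 to 0.15, edgeR adjusted p = 0.508). Without knockdown replicate 1 the estimate was -0.16.

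*nppa* encodes a natriuretic peptide made by working heart chambers. It was too low to pass the filter on low counts, with 6, 3 and 0 counts in knockdown replicates 1, 2 and 3, against 3, 10 and 4 counts in control replicates 1, 2 and 3. The 0 in knockdown replicate 3 allows up to 1.38 CPM, since 3 counts are the limit that a count of 0 allows there, and this limit covers counting error only. Without that filter all 10 heart genes were tested and 0 were called. Counts this low say little about whether *nppa* differed.

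The Gata factors had estimates above 0. *gata5* encodes a zinc finger factor needed for heart and endoderm formation, and is the gene of the zebrafish mutant faust. It had 60.5, 38.9 and 57.8 CPM in knockdown replicates 1, 2 and 3, against 37.3, 33.0 and 39.7 CPM in control replicates 1, 2 and 3. Knockdown replicates 1 and 3 were above every control, and knockdown replicate 2 lay within the control range. Its estimate of 0.52 on the log2 scale was the highest of the 8 (standard error 0.18, interval from 0.15 to 0.90, edgeR adjusted p = 0.11). Without knockdown replicate 2, *gata5* was called, at 0.69 with an adjusted edgeR p-value of 0.0236. Over its 17 alternatives the adjusted p-value ran from 0.0236 to 0.374, and none of the other 16 called it.

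*gata6*, a related factor of heart and endoderm precursors, had 72.3, 67.0 and 92.6 CPM in knockdown replicates 1, 2 and 3, against 60.9, 59.6 and 50.3 CPM in control replicates 1, 2 and 3. All knockdown values were above all control values, a pattern that 11.3% of all genes tested had. Means were 77.3 ± 13.5 CPM in knockdown and 56.9 ± 5.79 CPM in control libraries (SD, n = 3 each). The estimate came to 0.43 on the log2 scale (standard error 0.16, 95% confidence interval from 0.11 to 0.76, edgeR adjusted p = 0.129). Without knockdown replicate 3 the estimate was 0.27.

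*gata4*, the third member of this subfamily, had 39.6, 20.4 and 33.9 CPM in knockdown replicates 1, 2 and 3, against 26.7, 26.9 and 27.2 CPM in control replicates 1, 2 and 3. The controls were nearly equal, with knockdown replicates 1 and 3 above them and knockdown replicate 2 below them. On the log2 scale the estimate was 0.22 (standard error 0.21, 95% confidence interval from -0.22 to 0.66, edgeR adjusted p = 0.639). Leaving out knockdown replicate 1 gave 0.012, and leaving out knockdown replicate 2 gave 0.44. In knockdown replicate 2, each of the 3 Gata genes had its lowest knockdown value.

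*tbx5a* encodes the T-box factor missing in the zebrafish mutant heartstrings, which acts in the heart and the pectoral fin bud. It had 13.1, 8.60 and 9.63 CPM in knockdown replicates 1, 2 and 3, against 11.9, 12.5 and 13.1 CPM in control replicates 1, 2 and 3. Knockdown replicates 2 and 3 were below every control, and knockdown replicate 1 lay within the control range. Its change was estimated at -0.25 on the log2 scale (standard error 0.26, 95% confidence interval from -0.78 to 0.29, edgeR adjusted p = 0.667). Leaving out knockdown replicate 1 gave -0.45, and leaving out knockdown replicate 2 gave -0.14.

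*nkx2.5* encodes the homeobox factor of cardiac precursors. Its row had 5, 5 and 3 counts in knockdown replicates 1, 2 and 3, against 3, 6 and 3 counts in control replicates 1, 2 and 3. The row *nkx2.5-2* had 9, 8 and 9 counts in knockdown replicates 1, 2 and 3, against 23, 12 and 4 counts in control replicates 1, 2 and 3. Both rows were too low to pass the filter on low counts, and reads of *nkx2.5* can be split between them. Summed, they came to 6.09, 5.89 and 5.50 CPM in knockdown and 6.88, 5.77 and 3.52 CPM in control replicates 1, 2 and 3. With the copy rows of all genes summed, *nkx2.5* could be tested, and its estimate was 0.048 on the log2 scale (standard error 0.35, interval from -0.68 to 0.78, edgeR adjusted p = 0.962).

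**Figure D2:**
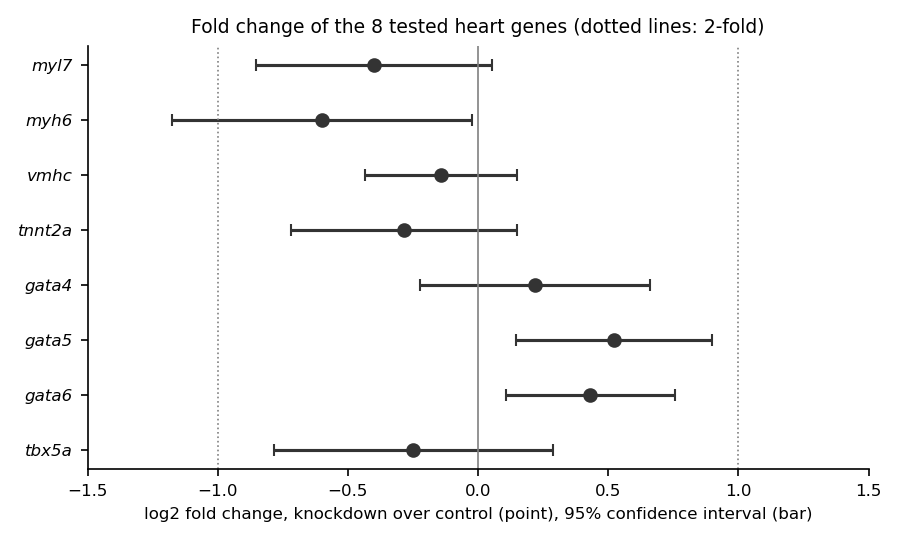
Log2 fold change of the 8 tested heart genes in knockdown over control libraries (points) with 95% confidence intervals (bars); dotted lines mark a 2-fold change either way. The contractile genes lie left of 0 and the 3 Gata genes right of it, and the interval of *myh6* is the only 1 of the 8 to cross a dotted line.

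The intervals show what size of change remained possible. Of the 8 tested genes, 7 had a 95% confidence interval that lay within a 2-fold change either way, against 76.7% of all genes tested, and *myh6* was the exception. A p-value that misses the threshold does not show that these genes were equal between the groups.

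The deviations differed between single libraries. Contractile genes in knockdown replicates 1, 2 and 3 deviated from the control mean by medians of -0.36, -0.17 and -0.45 on the log2 scale, and control replicates 1, 2 and 3 by -0.19, 0.066 and 0.051. Knockdown replicate 2 thus deviated less than control replicate 1. Summed over *gata4*, *gata5* and *gata6*, the level was 172, 126 and 184 CPM in knockdown replicates 1, 2 and 3, against 125, 119.6 and 117 CPM in control replicates 1, 2 and 3. All knockdown sums were above all control sums, with knockdown replicate 2 only just so.

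**Figure D3:**
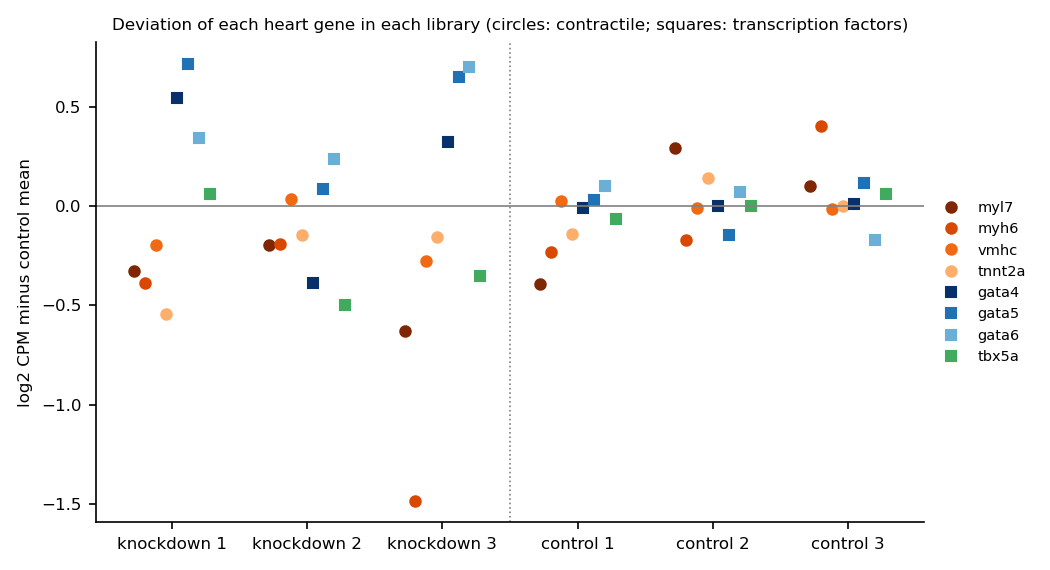
Deviation of each tested heart gene from its control mean, in log2 CPM, in each library (circles: the 4 contractile genes; squares: the 3 Gata genes and *tbx5a*). In knockdown replicates 1 and 3 the Gata genes lie above 0 and the contractile genes below it; *myh6* in knockdown replicate 3 is the lowest point, at -1.48.

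Other genes of heart muscle were read from the same fit. Of 24 further contractile and sarcomere genes, 20 were tested, 13 had estimates below 0 and the median was -0.17. The test called 3 of them, all lower, where 2.27% of all genes tested were called lower. *myom2a* and *myom1a*, which encode myomesins of the sarcomere's M-line, fell by 0.79 and 0.68 on the log2 scale, at edgeR adjusted p = 0.0190 and edgeR adjusted p = 0.0166. *ldb3b*, which encodes a Z-disc protein, fell by 0.78, at edgeR adjusted p = 0.035. These 3 genes are also used by skeletal muscle. Each lost its call without some single libraries. *myom2a* lost it without knockdown replicate 1 or control replicate 1 or 2, at 0.0802, 0.102 and 0.0965, and *myom1a* without knockdown replicate 3 or control replicate 1 or 2, at 0.0578, 0.109 and 0.0942. *ldb3b* lost it without knockdown replicate 1 or 3 or control replicate 1 or 2, at 0.0682, 0.0597, 0.158 and 0.141. Over all alternatives the adjusted p-value ran from 6.37e-06 to 0.102 for *myom2a*, from 0.000271 to 0.109 for *myom1a* and from 4.54e-05 to 0.158 for *ldb3b*.

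Some genes of that list known from heart muscle, chosen after their values were seen, were not called with all libraries and the filter described. Those named here all had estimates below 0, while 7 of the 20 tested genes of the list were above 0. Among these 7 were *tnnc1a* at 0.13, *tnni1b* at 0.076, *myh7ba* at 0.22 and *myh7bb* at 0.22 on the log2 scale. *cmlc1*, an essential light chain of cardiac myosin, had 9.58, 16.3 and 8.71 CPM in knockdown replicates 1, 2 and 3, against 17.5, 19.2 and 21.1 CPM in control replicates 1, 2 and 3. All knockdown values were lower, and the estimate was -0.73 on the log2 scale (unadjusted p = 0.00957, edgeR adjusted p = 0.114). It was called without knockdown replicate 2, at -1.07 with an adjusted edgeR p-value of 0.0259, and over all alternatives the adjusted p-value ran up to 0.341. *mybpc3*, cardiac myosin binding protein C, was at -0.42 on the log2 scale (edgeR adjusted p = 0.253). *vmhcl*, another ventricular myosin heavy chain, had 32, 23 and 5 counts in knockdown replicates 1, 2 and 3, against 52, 68 and 30 counts in control replicates 1, 2 and 3. Its estimate was -0.92 on the log2 scale (edgeR adjusted p = 0.242). Without a filter on low counts it was called, at an adjusted edgeR p-value of 0.0245, and over all alternatives the adjusted p-value ran up to 0.568. As with *myh6*, knockdown replicate 3 was the lowest library. The rows of *ankrd1a* and *actc1c* (as zgc:86709) are listed at 0 in every library, and each has a second row that is also at 0.

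Skeletal muscle genes mostly had estimates below 0. Of 34 on a skeletal muscle list, 27 were tested, 21 were below 0, and 7 were called lower and 2 higher, against 2.27% and 2.01% of all genes tested. All knockdown values were lower for 16 and higher for 2 of the 27, against 11.9% and 11.3% of all genes tested. Their median log2 fold change was -0.92. Their summed level was 6955, 9417 and 5628 CPM in knockdown replicates 1, 2 and 3, against 14866, 14442 and 10612 CPM in control replicates 1, 2 and 3. The groups did not overlap, and knockdown replicate 2 was the highest of the knockdown libraries here as in the summed level of *myl7*, *myh6*, *vmhc* and *tnnt2a*. Of this list *ckma*, a muscle creatine kinase, is listed at 0 in every library, as is its second row. The 2 genes called higher were the muscle regulators *myf5*, at 1.15 on the log2 scale (edgeR adjusted p = 0.0186), and *myog*, at 0.76 (edgeR adjusted p = 0.0224). The adjusted p-value of *myf5* over all alternatives ran from 0.00766 to 0.095. The alternatives were not run for *myog*. The regulators *myod1* and *myf6* were at 0.16 and 0.51 on the log2 scale and were not called. The part of skeletal muscle in the result for the shared contractile genes was not tested.

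Genes of calcium handling and conduction were mostly below 0. Of 22 listed, 11 were tested and 8 had estimates below 0, against 48.8% of all genes tested, with a median of -0.30. All knockdown values were lower for 2 and higher for 1 of the 11, against 11.9% and 11.3% of all genes tested. The only 1 called was *casq2*, where 2.27% of all genes tested were called lower. *casq2* encodes the calcium store protein of the sarcoplasmic reticulum in heart muscle, also found in skeletal muscle. It had 87.5, 103 and 64.7 CPM in knockdown replicates 1, 2 and 3, against 116, 134 and 131 CPM in control replicates 1, 2 and 3, with all knockdown values lower. It fell by 0.58 on the log2 scale (standard error 0.16, edgeR adjusted p = 0.0383). The call held without knockdown replicate 2 but not without any other library, and the adjusted p-value over all alternatives ran from 0.00466 to 0.189. With library size alone, without scaling factors, it was 0.0538. The 2 uncalled genes with the highest level were *jph2*, a junctophilin that holds the calcium-release membranes together, and *atp2a2a*, the calcium pump. They were at -0.30 (edgeR adjusted p = 0.304) and 0.21 (edgeR adjusted p = 0.586) on the log2 scale. The control means of *casq2*, *jph2* and *atp2a2a* were 127, 90.3 and 37.3 CPM, against 28.7 CPM for *myl7*. The part of skeletal muscle and other tissues in these values was not tested.

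Another pair of genes of that list were named after their values were seen. *slc8a1a*, the sodium-calcium exchanger of the heart, had all knockdown values lower, at -0.56 on the log2 scale (edgeR adjusted p = 0.102). *kcnh6a*, a repolarising potassium channel, had all knockdown values higher, at 0.52 on the log2 scale (edgeR adjusted p = 0.275). Both missed the threshold.

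Natriuretic peptide genes beside *nppa* were low, with at most 3 counts of *nppb* and at most 11 of *nppc* in any library. Of their receptors, *npr2* was at -0.13 (edgeR adjusted p = 0.725) and *npr1a* at -0.42 (edgeR adjusted p = 0.294) on the log2 scale, and *npr1a* had all knockdown values lower. *npr1b*, named after its value was seen, was at 0.80 (edgeR adjusted p = 0.091), with all knockdown values higher. Of 7 peptide and receptor genes listed beside *nppa*, 3 were tested and 0 were called. All knockdown values were lower for 1 and higher for 1 of the 3, against 11.9% and 11.3% of all genes tested.

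Further regulators of heart precursors went both ways. Of 30 listed, 21 were tested, 11 were above 0 and 10 below 0, with a median of 0.060. All knockdown values were higher for 6 and lower for 3 of the 21, against 11.3% and 11.9% of all genes tested. The test called 1, *aplnrb*, an apelin receptor gene that zebrafish heart precursors need, where 2.01% of all genes tested were called higher. It had 32.6, 33.1 and 48.2 CPM in knockdown replicates 1, 2 and 3, against 20.9, 23.1 and 21.1 CPM in control replicates 1, 2 and 3. The groups did not overlap, and it rose by 0.80 on the log2 scale (standard error 0.20, edgeR adjusted p = 0.0234). The call was lost without knockdown replicate 3, at 0.141, and without control replicate 1, 2 or 3, at 0.123, 0.0871 and 0.08. Its adjusted p-value over all alternatives ran from 0.00594 to 0.141. The most abundant uncalled genes were the muscle factor *mef2ca*, at -0.23 (edgeR adjusted p = 0.431), and the atrial regulator *nr2f1a*, at -0.39 (edgeR adjusted p = 0.109). The paralog *aplnra* was at 0.49 on the log2 scale (edgeR adjusted p = 0.188). Among the established factors of this list, *tbx20* was at 0.074 (edgeR adjusted p = 0.889) and *hand2* at 0.15 (edgeR adjusted p = 0.774) on the log2 scale, and the sign of *tbx20* changed without control replicate 2, at -0.036, or knockdown replicate 3, at -0.0044. The control means of *mef2ca* and *nr2f1a* were 337 and 171 CPM, against 28.7 CPM for *myl7*. The part of other tissues in the values of this list was not tested. *fgf8a* of this list is also on the presomitic mesoderm list below.

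The linings of the heart showed no call. Of 16 endocardial, valve and vascular genes, 15 were tested, 9 were below 0 and the median was -0.16. The most abundant were *notch1b*, a Notch receptor, and *vcana*, a matrix proteoglycan, at -0.16 (edgeR adjusted p = 0.603) and 0.092 (edgeR adjusted p = 0.834) on the log2 scale. Their control means were 480 and 350 CPM, against 28.7 CPM for *myl7*, and the part of other tissues in these values was not tested. All knockdown values were lower for 4 and higher for 0 of the 15, against 11.9% and 11.3% of all genes tested. *klf2b*, a factor induced by blood flow, had the smallest adjusted edgeR p-value, 0.0585, at -0.50 on the log2 scale and with all knockdown values lower. It was called with upper quartile factors, at 0.0494, and with copy rows summed, at 0.0481, and its adjusted p-value over all alternatives ran up to 0.258. The control mean of *klf2b* was 65.9 CPM, and the part of other tissues in it was not tested. *klf2a*, also on this list, did not pass the filter on low counts. Of 6 genes of the epicardium and pericardium, 3 were tested, with estimates of -0.14 for *tbx18*, -0.10 for *wt1a* and 0.069 for *wt1b*. The sign of *wt1a* changed without knockdown replicate 3 or control replicate 2, and that of *wt1b* without knockdown replicate 3. Both rows of the epicardial gene *tcf21* held 7 counts or fewer in each library.

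Tissues that share the regulators were examined in the same way. For the gut endoderm, where Gata genes are also active, 14 genes were listed and 6 tested. No gene of that list was called, 2 were above 0 and 4 below, and the summed level was 170 to 200 CPM in knockdown and 192 to 212 CPM in control libraries. All knockdown values were lower for 2 and higher for 1 of the 6, against 11.9% and 11.3% of all genes tested. The largest estimates either way were 0.88 for *hhex* (edgeR adjusted p = 0.0764) and -1.41 for *ptf1a* (edgeR adjusted p = 0.0802) on the log2 scale. *ptf1a* had only 3, 7 and 5 counts in knockdown replicates 1, 2 and 3. The most abundant were *prox1a*, at -0.45 (edgeR adjusted p = 0.124), and *foxa3*, at 0.21 (edgeR adjusted p = 0.517) on the log2 scale. The part of tissues other than the gut endoderm in the values of this list was not tested. For the pectoral fin bud and dorsal eye, where *tbx5a* is also active, 9 of 12 genes were tested. The test called 2 lower and 1 higher, against 2.27% and 2.01% of all genes tested. All knockdown values were lower for 2 and higher for 3 of the 9, against 11.9% and 11.3% of all genes tested. *fgf10a* and *fgf16* are listed at 0, and the summed level was 518 to 691 CPM in knockdown and 512 to 528 CPM in control libraries. *and1* and *and2*, actinodin genes of the fin fold, fell by 1.93 and 2.54 on the log2 scale, and *sall4*, a zinc finger factor of the fin bud, rose by 0.53. Adjusted p-values by edgeR were 0.00229, 0.0003 and 0.0418. Of the summed level of this list, *sall4* alone held 290 to 427 CPM in knockdown and 245 to 260 CPM in control libraries. The call of *sall4* held without knockdown replicate 2 but not without any other library, and its adjusted p-value over all alternatives ran from 0.00989 to 0.211. With all libraries and the edgeR setting robust=FALSE, the call of *sall4* was also lost, at 0.0512. The part of these tissues in the values of the Gata genes and *tbx5a* was not tested. Nor was the part of other tissues in the values of the fin bud and eye list, *and1*, *and2* and *sall4* among them.

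Markers of the unsegmented mesoderm had estimates above 0. Of 18 genes of the presomitic mesoderm, 11 were tested, 11 were above 0 and 5 were called higher, against 2.01% of all genes tested, with a median of 0.87. Their summed level was 442, 325 and 535 CPM in knockdown replicates 1, 2 and 3, against 235, 220.2 and 273 CPM in control replicates 1, 2 and 3, and *wnt8a* is listed at 0 throughout. Knockdown replicates 1 and 3 were the higher ones here, as for the Gata genes. Of 12 erythroid genes, 8 were tested and 2 were called lower, against 2.27% of all genes tested, with a median of -0.67. Their summed level was 418 to 629 CPM in knockdown and 671 to 946 CPM in control libraries, and *gata1a* is listed at 0 throughout. The erythroid genes called were *hbae3*, at -1.07 (edgeR adjusted p = 0.0102), and *slc4a1a*, at -0.87 (edgeR adjusted p = 0.0101) on the log2 scale. Over all alternatives their adjusted p-values ran up to 0.110 and 0.0871. The part of the presomitic and erythroid genes in the heart results was not tested.

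**Figure D4:**
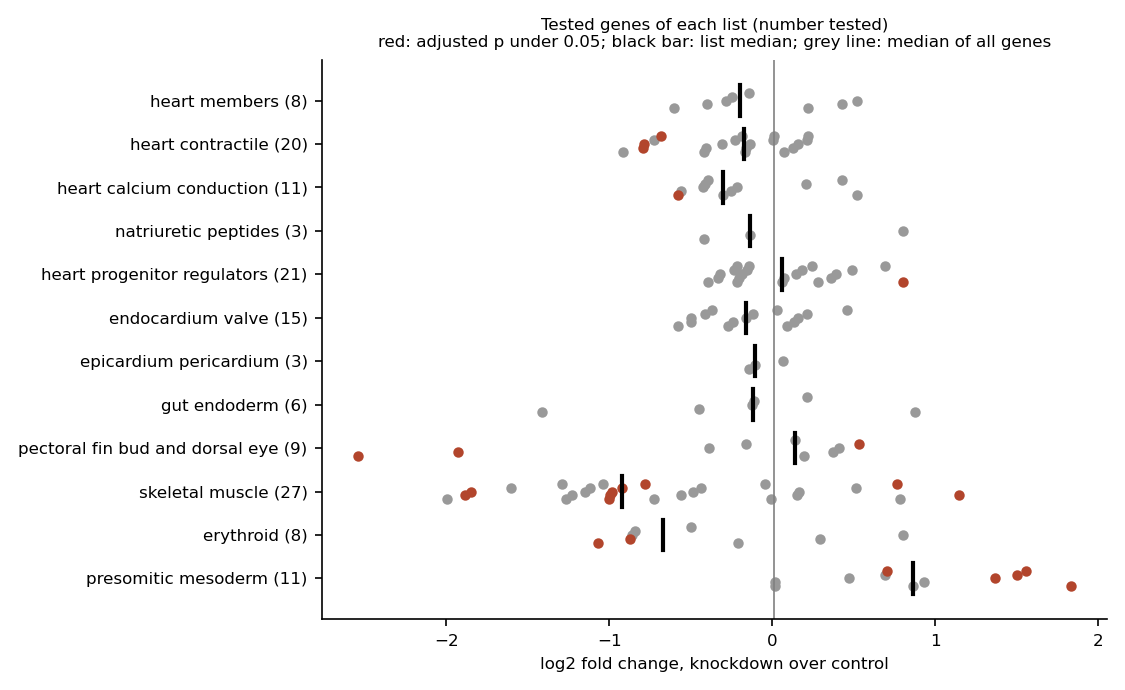
Log2 fold change in knockdown over control libraries of each tested gene (points), by gene list with the number tested, with genes at an adjusted p-value under 0.05 in red, list medians as black bars and the median of all genes as a grey line. No heart member is red, and the list medians run from -0.92 for skeletal muscle to 0.87 for the presomitic mesoderm.

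The genes whose level followed *myl7* most closely were sought among 14870 genes with a mean of at least 5 CPM. Over the 6 libraries the highest Pearson correlations of log2 CPM with *myl7* were 0.988 for *gng3*, a G protein subunit gene, and 0.98 for *thbd*. The next were 0.975 for *notum1b*, a Wnt-inactivating enzyme, 0.972 for *pcolcea*, an enhancer of collagen processing, and 0.966 for *pls3*, an actin-bundling protein. None of these 5 is on the heart lists, and the points share library, depth and group. Among the members, the correlation with *myl7* was 0.748 for *myh6*, 0.623 for *tnnt2a* and 0.61 for *vmhc*. It was -0.388 for *gata4*, -0.709 for *gata5*, -0.78 for *gata6* and 0.443 for *tbx5a*. With 6 libraries these values are descriptions only.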

How the data were processed

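The authors deposited raw counts as a single table, with genes by name in rows and libraries in columns; columns were matched to samples by library name. Per the submitters' processing notes, FastQC, cutadapt, STAR and DESeq2 were used with the build GRCz11; versions, the counting tool, annotation, strand use and treatment of shared reads are not given in the sources used here. Of the rows, 5998 are second rows with the suffix -2, holding 2.65% of the counts, and in 1631 such pairs both rows are at 0 (*gata1a*, for example), so genes with copies are uncertain. Overlapping and antisense genes cannot be separated. No sequence is printed. The description of control replicate 3 repeats the number 2; its title was used.

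Genes were kept by filterByExpr on the groups (min.count 10, min.total.count 15), libraries were TMM-scaled, and the groups were compared with edgeR 4.0.16 in R 4.3.3 (estimateDisp, glmQLFit with robust=TRUE, glmQLFTest; group the only term). P-values were adjusted by Benjamini-Hochberg over 15607 genes. The standard error is the fold change divided by the square root of F, and log2 CPM used a prior count of 2. The members, the lists and the naming rule were chosen with earlier results of these data known. The rule names all members, up to 4 called genes with the largest change per list or, with fewer than 2 called, the 2 uncalled ones with the highest level, and the 5 genes most like *myl7*. Other names were chosen after their values were seen. Alternatives were DESeq2 1.42.0, limma-voom 3.58.1, other scaling, filters and library sizes, summed copy rows, robust=FALSE, a replicate block and leaving out each library. The test was tried on simulated data with a log2 change of 1 either way. It called 60.5% of 195 changed genes, and 67.4% of the 129 with 10 to 100 CPM. It also called 10 unchanged genes. Smaller changes were not simulated. Totals of 2042600 to 3809123 counts limit the precision for low genes. Figures were drawn with matplotlib 3.10.9.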

Additional observations from a re-analysis of the deposited data

How the results depend on the processing

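All 8 tested heart genes kept the direction of their estimate under each of the 17 alternatives, and 1 of these 136 fits made a call, *gata5* without knockdown replicate 2. The number of heart genes called thus ran from 0 to 1 over the fits without 1 library and was 0 elsewhere. The number of genes called ran from 218 to 914 over the fits without 1 library, against 669 with all, and was 1010 without a filter on low counts; the cause was not tested. Scaling by library size alone put 58.9% of calls higher, against 46.9% with TMM. The alternatives were also run for 42 other genes, among them genes of the muscle, mesoderm and erythroid lists. Over the fits without 1 library, signs changed for *vcana* (from -0.19 to 0.25), *wt1b* (from -0.046 to 0.16), *tbx20* (from -0.036 to 0.27) and *wt1a* (from -0.34 to 0.10). Of 37 calls lost among the 42 genes, 35 were lost without a library. Medians of 3 lists moved under 1 alternative each. Whether the replicate numbers pair the samples was not settled. Deviations of same-numbered libraries correlated at -0.014, 0.066 and 0.069. Knockdown replicates 2 and 3 correlated best with the control of their own number, and knockdown replicate 1 with control replicate 3, at 0.025. With 3 libraries per group these correlations cannot decide it. With the replicate block, 773 genes and 0 heart genes were called. Depth limits *nppa* and the row *nkx2.5*, which rest on 10 counts or fewer per library. Summed with *nkx2.5-2*, *nkx2.5* had 7 to 26 counts per library.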
